A study of Mus musculus with 15 samples.

Results

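The genes of the MHC class II presentation pathway were followed across sorted mouse T cells during acute graft-versus-host disease (aGvHD). The set was H2-Aa, H2-Ab1, H2-Eb1, H2-DMb2, H2-Oa, Cd74 and Ciita, chosen by symbol, and 6 of the 7 were among the 4567 genes that the 4 deposited count tables list. H2-Oa was in none of the tables and has no values here. A table lists only genes whose 2 group means differed by about 2 or more on the log2 scale, so a gene without values is not shown to be silent. The 6 genes were all listed in the tables of Flica-negative against control cells, for CD4 and for CD8 cells, and of Flica-positive against Flica-negative CD8 cells, and none was listed in the table of Flica-positive against control CD8 cells. Calls in the 3 comparisons that listed them restate that selection, since the same libraries made it. The same holds for the other genes and marker lists below in any comparison that listed them.

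RNA was sequenced from 5 sorted splenic populations with 3 libraries each. Donor T cells and bone marrow from C57Bl6 mice were given to BALB/c mice after a lethal dose of 8 Gy, and 3 populations were sorted on day 7: CD8 cells with and without Flica signal, and CD4 cells without it (Flica-positive and Flica-negative), Flica being a FAM-labelled probe for active caspase-1. The CD4 control and CD8 control cells were Flica-negative cells of untreated, untransplanted C57Bl6 mice on day 0. Donor and recipient mice were 6 to 8 weeks old by the general methods, although legends of other experiments give younger recipients, and a sort pooled 8 to 12 mice with aGvHD or 1 to 2 control mice. The sort used CD3, CD4, CD8 and the probe, and controls differed from the other groups in transplantation, irradiation and day together. Per library, the listed genes received between 2143579 and 3184674 counts in the 12 Flica-negative libraries and between 7310375 and 11046043 in the Flica-positive libraries. These sums leave out unlisted genes and are not the depth. Normalized counts are counts over the authors' size factor for that library, and values are mean ± SD of 3 libraries. Replicates are labelled as biological, and the p-values measure the spread between such libraries.

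MHC class II molecules display peptides from proteins taken up by the cell to CD4+ T cells. An alpha and a beta chain assemble on the invariant chain, reach an endosomal compartment, and exchange the remnant of the invariant chain for peptide with the help of H2-DM, which H2-O inhibits. Ciita is the coactivator that turns these genes on, through factors bound to short conserved promoter boxes. B cells, dendritic cells and macrophages are the usual class II-positive cells of the spleen, while mouse T cells are held to make little class II of their own.

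The H2 genes lie together on chromosome 17 of GRCm38 (GENCODE M21), with H2-DMb2 at chr17:34143307-34151555 on the plus strand, H2-Ab1 at chr17:34257689-34269419 on the plus strand, H2-Aa at chr17:34282744-34287823 on the minus strand and H2-Eb1 at chr17:34305867-34316674 on the plus strand. Ciita and Cd74 lie outside this cluster, Ciita at chr16:10480059-10528418 on the plus strand. All 6 are protein-coding genes.

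RefSeq windows of GRCm38.p6, from 250 bases before to 50 bases after the start of a gene, were at hand for 4 of the 7 set genes. They were searched on both strands for the CCAAT box, whose reverse complement ATTGG is the core of the Y box of class II promoters, and for AACNGNTG, a simplified form of the X box. All 4 windows held CCAAT on either strand, as did 37.4% of 32851 windows of all genes, and AACNGNTG was in the windows of H2-Eb1 and H2-DMb2 and in 10.5% of all windows. AACNGNTG starting 25 to 35 bases before ATTGG on the same strand, an arrangement chosen after the sequences were seen, was in the H2-Eb1 and H2-DMb2 windows, in those of the related H2-Eb2 and H2-DMb1, and in 28 windows in all (0.0852%). The stretches of 60 bases below set the promoters of H2-Aa and H2-Eb1 beside those of H2-DMb2, H2-Eb2 and H2-Ob. H2-DMb2, H2-Eb2 and H2-Ob held smaller shares of their CD8 control level in Flica-positive cells. H2-DMb1, whose window held both strings with starts 31 bases apart, is not shown. Each stretch runs 5′ to 3′ on the strand of its gene, with ATTGG and, where it was found, AACNGNTG in capitals.
H2-Aa (chr17:34287857-34287916, minus strand): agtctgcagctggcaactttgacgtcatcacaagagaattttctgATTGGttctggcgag
H2-Eb1 (chr17:34305763-34305822, plus strand): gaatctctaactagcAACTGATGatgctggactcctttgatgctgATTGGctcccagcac
H2-DMb2 (chr17:34145114-34145173, plus strand): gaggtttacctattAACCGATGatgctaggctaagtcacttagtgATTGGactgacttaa
H2-Eb2 (chr17:34325530-34325589, plus strand): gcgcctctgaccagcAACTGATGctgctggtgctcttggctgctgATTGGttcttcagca
H2-Ob (chr17:34238803-34238862, plus strand): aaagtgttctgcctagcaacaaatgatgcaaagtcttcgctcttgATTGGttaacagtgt
The H2-DMb2 start of RefSeq lies inside the GENCODE span of that gene. ATTGG began 48 bases before the RefSeq start of H2-Aa, 59 before that of H2-Eb1, 90 before that of H2-DMb2, 100 before that of H2-Eb2 and 57 before that of H2-Ob. The capitals began 30 bases apart in H2-Eb1 and H2-Eb2 and 31 bases apart in H2-DMb2. The longer string CTGATTGG was in the windows of H2-Aa, H2-Eb1, H2-Oa and H2-Eb2 and in 4.10% of all windows, and the STAT-type string TTCNNNGAA was in the H2-DMb2 window alone of the 4 set genes and in 8.30% of all windows. A match of letters is a description and does not show that a factor binds.

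Ciita, the coactivator, had 582, 430.3 and 599 normalized counts in the CD4 control libraries and 689.8, 446 and 458 in the CD8 control libraries. On day 7 it had 18.5, 8.93 and 22.4 in CD4 Flica-negative, 23.4, 44.8 and 46.6 in CD8 Flica-negative and 274, 336 and 212 in CD8 Flica-positive libraries. The Flica-positive libraries thus lay above all 6 Flica-negative day 7 libraries and below all control libraries. Ciita rose by 2.83 ± 0.45 (log2 difference ± SE, 7.11-fold) from CD8 Flica-negative to Flica-positive cells (adjusted p = 0.00053; here and below, p-values adjusted by the Benjamini-Hochberg method come from the quasi-likelihood test of edgeR). Flica-positive cells held 51.6% of the CD8 control mean, a log2 difference of -0.96 ± 0.33 (adjusted p = 0.03). A block for the replicate number ended that call (adjusted p = 0.081), and so did leaving out CD8 control replicate 1 (-0.72, adjusted p = 0.12), Flica-positive replicate 1 (-0.96, adjusted p = 0.062) or the third Flica-positive library (-0.80, adjusted p = 0.064).

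H2-Aa, the alpha chain of I-A, had 2534, 1712 and 1499.6 normalized counts in CD4 control and 2747, 1795 and 1526 in CD8 control libraries. It fell to 33.5, 75.9 and 50.5 in CD4 Flica-negative and to 254, 135 and 153 in CD8 Flica-negative libraries, and stood at 1893, 2476 and 2078 in CD8 Flica-positive libraries. The Flica-positive and control libraries overlapped, and every Flica-negative day 7 library was far below both.

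H2-Ab1, the beta chain of I-A, had 2778, 2031 and 1562 normalized counts in CD4 control and 2737, 1809 and 1599 in CD8 control libraries. Its day 7 values were 90.8, 99.3 and 108 in CD4 Flica-negative, 347, 202 and 274 in CD8 Flica-negative and 2979, 3004 and 2200.4 in CD8 Flica-positive libraries. H2-Eb1, the beta chain of I-E, had 2249, 1519 and 1325 in CD4 control, 2248, 1683 and 1521 in CD8 control, 29.1, 37.9 and 54.5 in CD4 Flica-negative, 344, 157 and 141 in CD8 Flica-negative and 2219, 2303 and 1972 in CD8 Flica-positive libraries. Both beta chains followed the same order as H2-Aa: the Flica-positive and both control populations overlapped, CD8 Flica-negative libraries lay below them, and CD4 Flica-negative libraries lay lowest without overlap.

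Cd74, the invariant chain and the most abundant of the set, had 8160.4, 6146 and 7109 normalized counts in CD4 control and 8373, 6400.1 and 6249.98 in CD8 control libraries. It had 439, 388 and 379 in CD4 Flica-negative, 850.1, 519 and 772 in CD8 Flica-negative and 6434, 6832 and 7040.01 in CD8 Flica-positive libraries. CD8 Flica-positive cells thus held 96.6% of the CD8 control mean, against 10.2% in CD8 Flica-negative cells. The first of these shares depends on the scaling: with trimmed-mean (TMM) scaling over the listed genes the log2 difference of Cd74 between Flica-positive and CD8 control cells was -1.72 (adjusted p = 0.00069), as taken up below for all 6 genes.

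**Figure D1:**
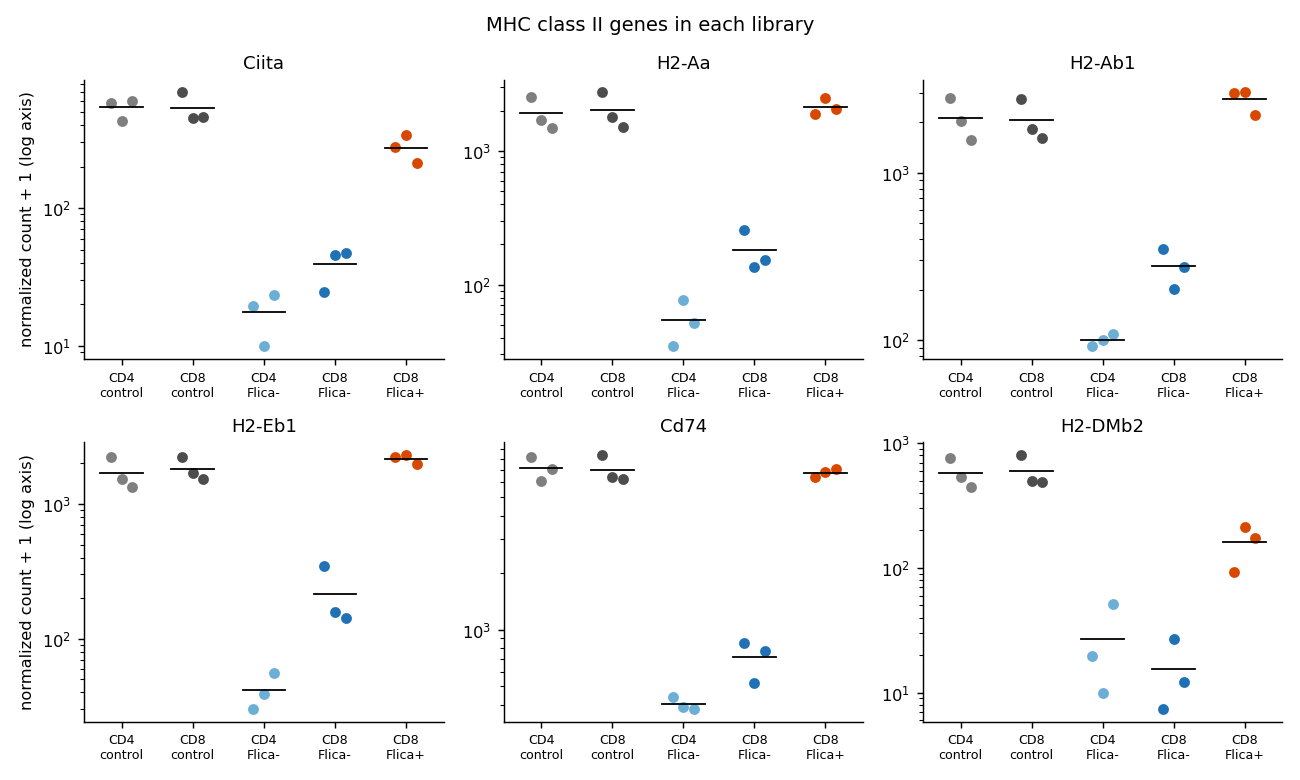
Normalized counts of the 6 class II genes in each library, plus 1, on log axes that differ between panels. Each point is a library (3 per population) and each line is the mean. The Flica-positive libraries overlap the CD8 control libraries for H2-Aa, H2-Ab1, H2-Eb1 and Cd74 and lie below them for Ciita and H2-DMb2.

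Per kilobase of the longest protein-coding transcript, the CD8 control levels were 4970 ± 840.3 normalized counts for Cd74, 1793 ± 569 for H2-Aa, 1690.2 ± 499.7 for H2-Ab1, 1089 ± 229 for H2-Eb1, 401 ± 121 for H2-DMb2 and 88.4 ± 22.9 for Ciita. In Flica-positive cells they were 4801 ± 218, 1905 ± 264, 2251 ± 377, 1297 ± 103, 108 ± 41.4 and 45.6 ± 10.3 in the same order of genes. The level of Cd74 was thus above that of every chain gene in both populations, and Ciita was the lowest of the 6. The alpha and beta chains of I-A were closest to each other in control cells. H2-Aa was 98.3 ± 2.59 per 100 H2-Ab1 normalized counts in CD8 control and 90.5 ± 5.90 in CD4 control cells. It was 80.1 ± 15.6 in Flica-positive cells, with every library (63.6 to 94.5) below those of CD8 control cells (95.4 to 100.4). In Flica-negative day 7 cells it was 65.3 ± 8.73 in CD8 and 53.3 ± 20.6 in CD4 cells.

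The 6 listed genes of the set were higher in the Flica-positive than in the Flica-negative CD8 population. All 6 were called higher, as were 21.4% of all listed genes tested, and in all 6 every Flica-positive library lay above every Flica-negative library, as in 31.0% of listed genes. The log2 differences were 3.57 ± 0.29 for H2-Aa, 3.31 ± 0.27 for H2-Ab1 and 3.34 ± 0.34 for H2-Eb1, which is 11.9-, 9.95- and 10.1-fold. Cd74 rose by 3.25 ± 0.24 (9.48-fold) and H2-DMb2 by 3.44 ± 0.67 (10.8-fold). Adjusted p-values from edgeR lay between 2.4e-06 (Cd74) and 0.0026 (H2-DMb2). The median over the 6 was 3.33, beside a median of 0.42 over all listed genes.

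Between CD8 Flica-positive and CD8 control cells the set split. H2-Aa (0.09 ± 0.26, adjusted p = 0.76), H2-Ab1 (0.41 ± 0.26, adjusted p = 0.17), H2-Eb1 (0.25 ± 0.22, adjusted p = 0.31) and Cd74 (-0.05 ± 0.19, adjusted p = 0.81) were not called, with 95% intervals of the log2 difference of -0.43 to 0.60, -0.10 to 0.93, -0.18 to 0.68 and -0.42 to 0.32. H2-DMb2 fell by 1.90 ± 0.41 on the log2 scale (3.72-fold, adjusted p = 0.0038) and Ciita as given above, so that 2 of 6 were called lower, as were 24.0% of listed genes. The median of the 6 was 0.02 and that of all listed genes 2.04. Scaling decided this comparison: TMM scaling moved the median log2 difference of all listed genes by -1.61, and all 6 genes were then called lower, with H2-Aa at -1.58, H2-Ab1 at -1.22, H2-Eb1 at -1.39, Cd74 at -1.72, Ciita at -2.59 and H2-DMb2 at -3.59. Without CD8 control replicate 1, H2-Ab1 passed the threshold as higher in Flica-positive cells (0.68, adjusted p = 0.048).

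In Flica-negative cells all 6 listed genes were lower on day 7 than in control cells of the same lineage. For CD8 cells, all 6 were called lower (29.4% of listed genes), and no library overlapped (32.9% of listed genes lay below in this way). The log2 differences ran from -2.90 ± 0.29 for H2-Ab1 to -5.33 ± 0.51 for H2-DMb2, with -3.49 ± 0.33 for H2-Aa, -3.09 ± 0.36 for H2-Eb1, -3.30 ± 0.22 for Cd74 and -3.78 ± 0.38 for Ciita. For CD4 cells, all 6 were again called lower (27.3% of listed genes) without overlap (32.3%), from -4.15 ± 0.18 for Cd74 to -5.38 ± 0.32 for H2-Eb1, with -5.18 ± 0.34 for H2-Aa, -4.41 ± 0.26 for H2-Ab1, -4.44 ± 0.51 for H2-DMb2 and -4.98 ± 0.37 for Ciita. The largest adjusted p by edgeR's test was 3.7e-05 for CD8 and 1.3e-05 for CD4 cells. In these bulk libraries, fewer cells of a class II-positive type and less class II RNA per cell cannot be told apart. B cell markers fell in the same comparisons, as given below.

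**Figure D2:**
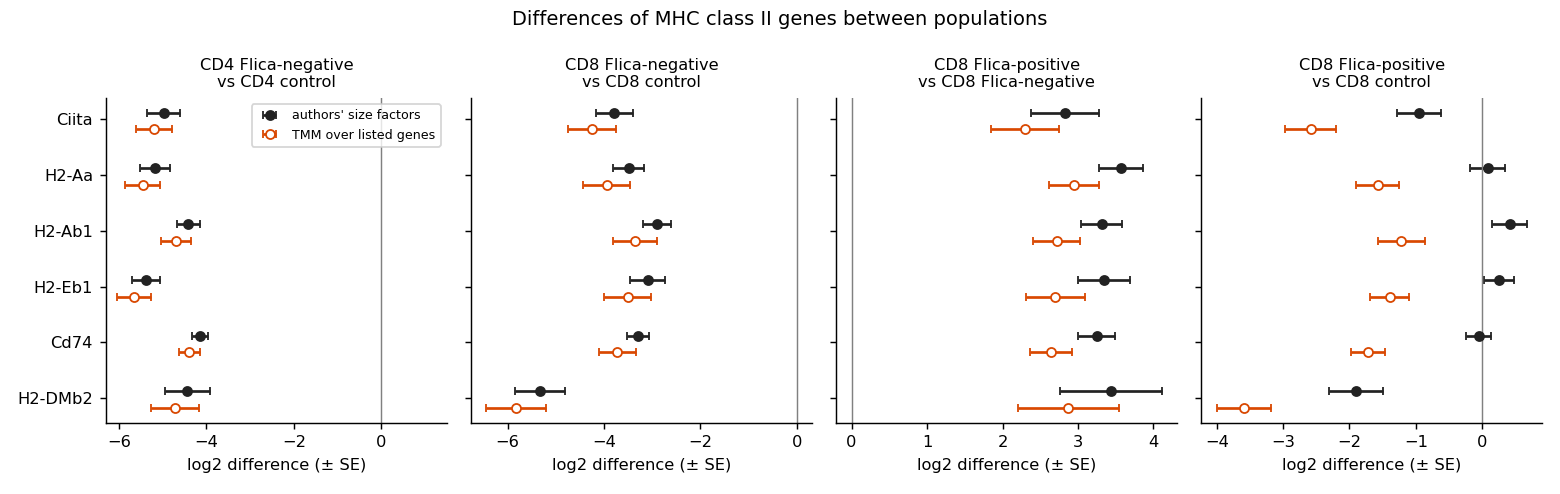
Log2 differences (± SE) of the 6 class II genes in 4 comparisons, with the authors' size factors (filled points) and with TMM scaling over the listed genes (open points). Both scalings put Flica-negative cells below control cells and Flica-positive above Flica-negative cells, while against CD8 control cells H2-Aa, H2-Ab1 and H2-Eb1 change sign between them.

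No difference in class II RNA was detected between the lineages in control mice. Of the 6 genes, 0 were called between CD4 and CD8 control cells by edgeR's test, where 12.7% of listed genes were called, and 0 had an unadjusted p under 0.05, by edgeR or by DESeq2. Their log2 differences lay between -0.10 ± 0.20 (H2-Eb1) and 0.05 ± 0.21 (H2-Ab1), and the 95% interval reaching farthest from 0 was that of H2-Aa, -0.50 to 0.34. In both lineages the first control library was the highest for most of the set: for 5 of 6 genes in CD4 control and for 6 of 6 in CD8 control cells. These libraries were also the highest for 9 of 16 B cell markers in CD4 and 14 of 16 in CD8 control cells, and their summed class II level was 17057 and 17597 against 11841 to 12629 in the other 4 control libraries. What part B cell RNA had in this was not tested.

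On day 7 the Flica-negative populations of the lineages did differ. CD4 cells held less than CD8 cells of H2-Aa (-1.76 ± 0.40, adjusted p = 0.0042), H2-Ab1 (-1.46 ± 0.31, adjusted p = 0.0025), H2-Eb1 (-2.39 ± 0.42, adjusted p = 0.00056) and Cd74 (-0.83 ± 0.24, adjusted p = 0.017), so that 4 of 6 were called lower, as were 12.5% of listed genes. Ciita (-1.19 ± 0.64, adjusted p = 0.2) and H2-DMb2 (0.83 ± 0.83, adjusted p = 0.5) were not called, on counts of 6 to 63 per library. The Cd74 call was lost without CD4 Flica-negative replicate 2 (-0.80, adjusted p = 0.076), CD8 Flica-negative replicate 1 (-0.68, adjusted p = 0.055) or CD8 Flica-negative replicate 3 (-0.77, adjusted p = 0.053). The fall from control was steeper in CD4 than in CD8 cells for H2-Aa (difference of log2 differences -1.69 ± 0.45, adjusted p = 0.022), H2-Ab1 (-1.51 ± 0.37, adjusted p = 0.013) and H2-Eb1 (-2.29 ± 0.47, adjusted p = 0.0037), 3 of 6 genes against 4.59% of listed genes. Cd74 stood at -0.85 ± 0.27 (adjusted p = 0.052). It passed with the replicate block (-0.83, adjusted p = 0.022) and with a mean of at least 10 (adjusted p = 0.046), but not with TMM scaling (adjusted p = 0.29). With TMM scaling only H2-Eb1 of the 3 called genes kept its call (H2-Aa and H2-Ab1 both adjusted p = 0.11), and the H2-Aa call was also lost when any of 6 libraries was left out (adjusted p = 0.051 to 0.07). For the member ratio, H2-Eb1 was 40.2 ± 9.33 per 100 H2-Ab1 normalized counts in CD4 and 76.1 ± 23.9 in CD8 Flica-negative cells (exact two-sided permutation test p = 0.1, the smallest that 3 against 3 libraries allow). Neutrophil markers summed to 2542 to 6896 normalized counts in CD4 and 10853 to 16746 in CD8 Flica-negative libraries. Of the 14, 11 were called lower in CD4 than in CD8 cells. Conventional dendritic cell markers summed to 1385 to 2152 in CD4 and 7022 to 10209 in CD8 Flica-negative libraries. Itgax alone made up 59.56% of the mean sum in CD4 and 94.97% in CD8 cells, with means of 1048 and 8514. The gap between these sums was thus mainly that of Itgax and does not show a difference in dendritic cell content. Of the 7 listed genes, 2 were called lower in CD4 than in CD8 cells and 1 higher. The sums of B cell markers (920 to 1192 and 917 to 1074) and macrophage markers (5477 to 7184 and 6699 to 8272) overlapped. Single genes led these sums, so the overlap does not show equal cell content. Ccr2 made up 80.2% of the mean macrophage sum in CD4 and 67.7% in CD8 cells. Cd22 made up 46.5% of the B cell sum in CD4 and Cd72 57.2% in CD8 cells. In control libraries neutrophil markers summed to 65.8 to 146 in CD4 and 59.1 to 115 in CD8 cells. Conventional dendritic cell markers summed there to 624 to 862 and 684 to 1027. The part of such cells in the lineage difference of class II was not tested.

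H2-DMb2, a beta chain of the peptide editor H2-DM, was the member farthest below control in Flica-positive cells. It had 754, 539 and 446 normalized counts in CD4 control and 802, 496 and 487 in CD8 control libraries, and 18.5, 8.93 and 50.5 in CD4 Flica-negative, 6.39, 26.1 and 11.2 in CD8 Flica-negative and 92.6, 213 and 173 in CD8 Flica-positive libraries. Its Flica-positive mean was 26.8% of CD8 control. The neighbouring gene H2-DMb1, which encodes the other H2-DM beta chain, moved apart from it: 276, 249.8 and 169 in CD8 control, 20.2, 55.1 and 28.5 in CD8 Flica-negative and 344, 536 and 639.8 in CD8 Flica-positive libraries. Flica-positive cells held 219% of the CD8 control mean of H2-DMb1 (log2 difference 1.13 ± 0.36, adjusted p = 0.022).

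The H2-DM beta chain genes therefore exchanged order. H2-DMb1 made up 25.6%, 33.5% and 25.8% of the normalized counts of the pair in CD8 control libraries, 76.0%, 67.8% and 71.7% in CD8 Flica-negative and 78.8%, 71.5% and 78.7% in CD8 Flica-positive libraries, without overlap between control and Flica-positive cells (28.3 ± 4.50% against 76.3 ± 4.15%, exact two-sided permutation test p = 0.1, the smallest possible, 1 of 3 ratios tested). Scaling by library cancels in this share. In CD4 Flica-negative libraries it spread from 12.5% to 63.6% on few counts. The call of H2-DMb1 alone was lost with the replicate block (adjusted p = 0.079), in the fit of all 15 libraries (adjusted p = 0.065), and without CD8 control replicate 3 (adjusted p = 0.056), Flica-positive replicate 2 (adjusted p = 0.061) or the third Flica-positive library (adjusted p = 0.058), and with TMM scaling its sign turned (-0.58, adjusted p = 0.16). The coding transcripts are near copies in parts: 25.2% of all 50-base and 5.40% of all 150-base windows of H2-DMb2 occur in H2-DMb1, so reads from these stretches could be assigned to either. H2-Eb1 shared no such window with H2-Eb2.

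H2-Oa, the alpha chain of the H2-DM inhibitor H2-O, was not listed, but its partner H2-Ob was. H2-Ob had 2147, 1872 and 1548 normalized counts in CD4 control and 2455, 2221 and 1772 in CD8 control libraries. On day 7 it had 39.7, 87.1 and 96.1 in CD4 Flica-negative, 17.0, 8.40 and 15.5 in CD8 Flica-negative and 24.6, 37.7 and 22.7 in CD8 Flica-positive libraries. Flica-positive cells, which overlapped control cells in H2-Ab1, thus held 1.32% of the control level of H2-Ob (log2 difference -6.24 ± 0.33, adjusted p = 3.7e-06). H2-Ob was 108 ± 16.7 per 100 H2-Ab1 normalized counts in CD8 control and 1.04 ± 0.21 in Flica-positive cells. It went against the chain genes and Cd74 between the Flica-negative populations, with more in CD4 than in CD8 cells (2.44 ± 0.56, adjusted p = 0.0045 by edgeR's test, where 9.95% of listed genes were called higher) and a shallower fall in CD4 cells (2.65 ± 0.44, adjusted p = 0.00064, where 5.67% were called higher).

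**Figure D3:**
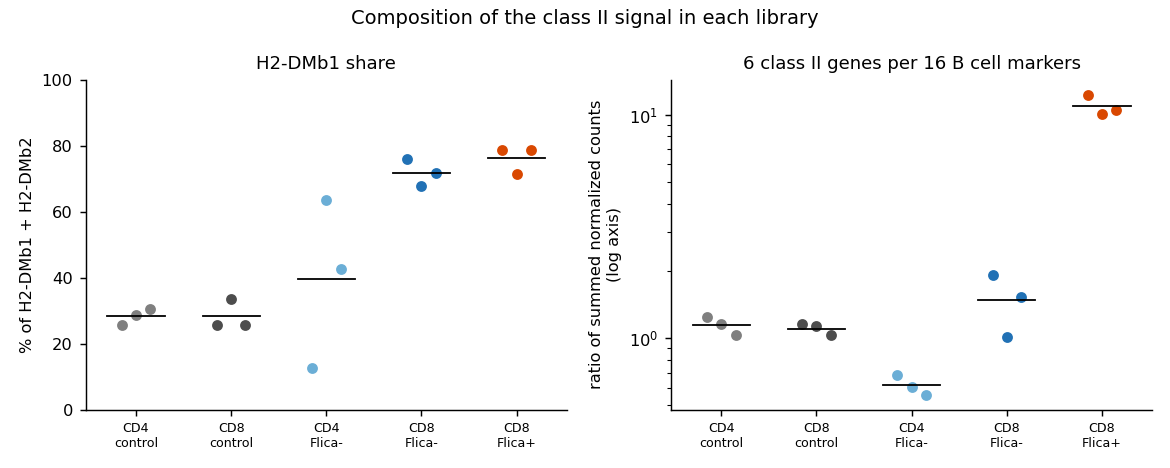
Left, the share of H2-DMb1 in the normalized counts of H2-DMb1 plus H2-DMb2 (%), and right, the summed normalized counts of the 6 class II genes divided by those of 16 B cell markers (log axis), in each library (points) with the mean (line). The share was 25.6% to 33.5% in CD8 control and 71.5% to 78.8% in Flica-positive libraries, and the ratio was 1.03 to 1.15 and 10.0 to 12.3.

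Of 25 other genes of the pathway (chains, H2-DM and H2-O subunits, endosomal proteases and their inhibitors, thiol reductase, a tetraspanin and membrane ubiquitin ligases), 11 were listed. In Flica-positive against Flica-negative CD8 cells, 9 of the 10 that could be tested were called higher (21.4% of listed genes) and none lower (2.70%), with H2-Ob as the exception (1.05 ± 0.97, adjusted p = 0.46, and called higher, of the alternatives run, only in the fit of all 15 libraries, 1.05 ± 0.38, adjusted p = 0.048). Of these 9, Cd9 (0.93 ± 0.22, adjusted p = 0.0089) lost its call with TMM scaling (0.33, adjusted p = 0.35). H2-Ea, H2-DMb1, Ctsh, Lgmn, Marchf1 and Marchf8 were listed for this comparison itself, so their calls restate that selection. Against CD8 control cells, 7 of 11 were called higher and 2 lower, beside 47.0% and 24.0% of listed genes, and with TMM scaling 3 were called higher and 2 lower. Of the 11, 3 were called higher and 6 lower in Flica-negative against control cells, in CD8 (38.0% and 29.4% of listed genes) and in CD4 cells (32.1% and 27.3%), and the fit of all 15 libraries called 5 higher in CD8 cells.

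The ubiquitin ligases of the list differed from each other. Marchf1 (older symbol March1), which marks class II molecules for removal from the cell surface, had 237, 156 and 198 normalized counts in CD4 control and 259, 193 and 124 in CD8 control libraries. It had 5.29, 10.0 and 8.01 in CD4 Flica-negative, 33.0, 33.6 and 47.5 in CD8 Flica-negative and 222, 343 and 545 in CD8 Flica-positive libraries. Its order was that of the class II chains: Flica-positive and control libraries overlapped, and CD4 Flica-negative libraries lay lowest. Marchf1 rose by 3.27 ± 0.45 from Flica-negative to Flica-positive CD8 cells (adjusted p = 0.00017). From control to Flica-negative cells it changed by -2.33 ± 0.43 in CD8 (adjusted p = 0.00091) and by -4.65 ± 0.46 in CD4 cells (adjusted p = 4e-06). The fall was steeper in CD4 cells (-2.32 ± 0.62, adjusted p = 0.022), a call lost with TMM scaling (-2.18, adjusted p = 0.079) and without CD4 control replicate 1 (-2.17, adjusted p = 0.059) or CD4 Flica-negative replicate 1 (-2.11, adjusted p = 0.057). The difference of Flica-positive from CD8 control cells was 0.94 ± 0.46 (adjusted p = 0.089), passed without Flica-positive replicate 1 (1.21, adjusted p = 0.048) and turned sign with TMM scaling (-0.80, adjusted p = 0.12).

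Marchf8 (older symbol March8), a related ligase with other membrane proteins among its targets, was low in control cells, with 6.70, 0 and 8.00 normalized counts in CD4 and 6.17, 0 and 21.2 in CD8 libraries. It had 25.6, 17.9 and 66.5 in CD4 Flica-negative, 62.9, 35.5 and 60.4 in CD8 Flica-negative and 251, 226 and 212 in CD8 Flica-positive libraries, so every Flica-positive library lay above all others. Marchf8 was higher in the Flica-positive than in the Flica-negative CD8 population (2.12 ± 0.43, adjusted p = 0.0031), a call lost in the fit of all 15 libraries (adjusted p = 0.099), and higher than in CD8 control cells (4.65 ± 1.12, adjusted p = 0.0065). Its rises from control to Flica-negative cells were 2.53 ± 1.01 in CD8 (adjusted p = 0.046) and 2.88 ± 1.09 in CD4 cells (adjusted p = 0.039). Each of these was lost when any of 4 libraries was left out, with adjusted p = 0.059 to 0.12 in CD8 and adjusted p = 0.058 to 0.21 in CD4 cells, and also with TMM scaling in CD8 (adjusted p = 0.063) and with the replicate block in CD4 cells (adjusted p = 0.057).

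Of the proteases and their companions, Cst3, Ifi30, Ctsh and Cd9 had their highest mean in Flica-positive cells, while Lgmn had its highest, 374 ± 44.4 normalized counts, in CD4 control cells. Cst3, Ifi30 and Cd9 were listed only for Flica-positive against CD8 control cells, so their differences in that comparison restate the selection. The other cathepsins sought were not listed and have no values here. Cst3, which encodes the protease inhibitor cystatin C, had 5855, 5268 and 4300.3 normalized counts in Flica-positive, 1963, 1764 and 1799 in CD8 Flica-negative and 672, 625 and 547 in CD8 control libraries. Ifi30, the lysosomal thiol reductase GILT, had 1312, 1889 and 1663 in Flica-positive against 343, 327 and 296 in CD8 control libraries (2.33 ± 0.24, adjusted p = 5.6e-05). Ctsh (cathepsin H) had 329, 607 and 657 against 273, 182 and 186 (1.31 ± 0.37, adjusted p = 0.014), and Lgmn (legumain) 286, 173 and 204 against 138, 45.7 and 81.7 (1.32 ± 0.55, adjusted p = 0.056). Lgmn passed as higher by DESeq2 (adjusted p = 0.022), in the fit of all 15 libraries (adjusted p = 0.041) and without CD8 control replicate 1 (1.79, adjusted p = 0.036). Cd9, the tetraspanin, rose by 2.51 ± 0.30 (adjusted p = 0.00012). With TMM scaling the calls of Ifi30 (0.66, adjusted p = 0.059) and Cd9 (0.85, adjusted p = 0.056) were lost and the signs of Ctsh (-0.40, adjusted p = 0.35) and Lgmn (-0.31, adjusted p = 0.64) turned, while the block ended the Ctsh call (adjusted p = 0.055).

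The E genes besides H2-Eb1 moved in opposite directions. H2-Eb2, a second E-type beta chain gene, had 131, 92.8 and 158 normalized counts in CD4 control and 132, 67.2 and 99.1 in CD8 control libraries, and gave 0 counts in all 6 Flica-negative day 7 libraries and 0, 2 and 0 counts in Flica-positive libraries. Against a floor of 3 counts per library, it was at least 34.8-fold lower in CD8 Flica-negative, at least 28.1-fold lower in CD8 Flica-positive and at least 45.5-fold lower in CD4 Flica-negative cells than in control cells of the lineage. H2-Ea, the alpha chain that pairs with E beta chains, gave 0 counts in all 6 control libraries, 0 to 8 counts in Flica-negative day 7 libraries and 100, 59 and 130 counts in Flica-positive libraries (117, 69.5 and 155 normalized counts). Relative to CD8 control cells, Flica-positive cells were at least 41.7-fold higher, and they were also higher than CD8 Flica-negative cells (5.46 ± 0.94, adjusted p = 0.001). As background, a promoter deletion silences H2-Ea in C57Bl6 mice, where GENCODE M21 lists it as a polymorphic pseudogene at chr17:34341959-34344645, and BALB/c mice transcribe it. The strain from which the class II reads came was not tested.

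**Figure D4:**
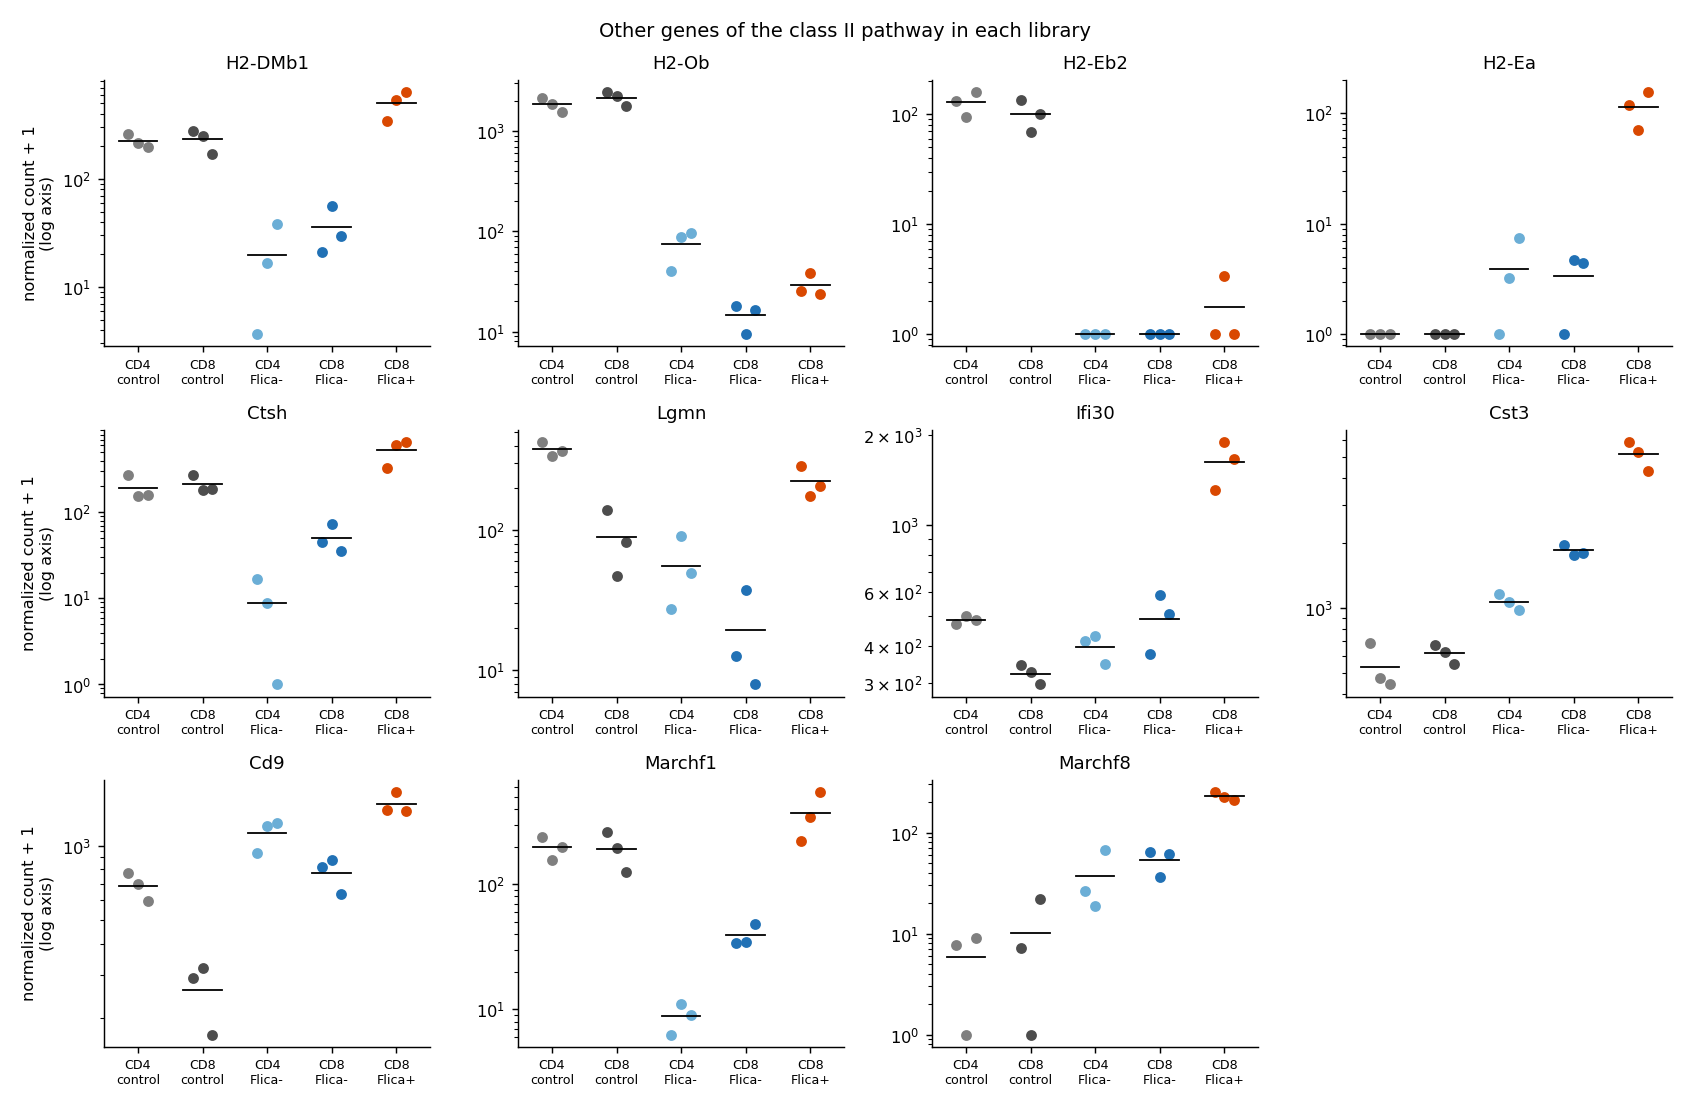
Normalized counts of the 11 other listed genes of the class II pathway in each library, plus 1, on log axes that differ between panels; points are libraries and lines are means. H2-Ob and H2-Eb2 are low in all day 7 libraries, H2-Ea is at 0 in all control libraries, and Cst3 and Marchf8 are highest in Flica-positive libraries.

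Genes that act before Ciita or beside class II were read from lists of the same kind. Of 15 genes of the interferon gamma to Ciita axis 8 were listed, of which 3 were called higher (21.4% of listed genes) and 2 lower (2.70%) in the Flica-positive than in the Flica-negative CD8 population, against 2 and 4 with TMM scaling and 3 and 4 with the replicate block. Ifng, the cytokine that induces Ciita in many cell types, was called lower in the Flica-positive than in the Flica-negative CD8 population (3125 ± 388 against 4769 ± 426 normalized counts, -0.61 ± 0.20, adjusted p = 0.041), and Irf4 was also lower (-0.57 ± 0.19, adjusted p = 0.046). Spi1, which encodes the myeloid and B cell factor PU.1, had 1442, 2697 and 3491 in Flica-positive against 116, 139 and 101 in CD8 Flica-negative libraries (4.42 ± 0.35, adjusted p = 3.1e-06). Irf8 (0.65 ± 0.20, adjusted p = 0.031) and Ifngr2, a receptor chain (2.98 ± 0.59, adjusted p = 0.0029), were also higher, the first of these not with TMM scaling (0.06, adjusted p = 0.86). The other receptor chain, Ifngr1, had 7707, 8637 and 9321 in Flica-positive against 12273, 11369.6 and 12435 in CD8 Flica-negative libraries without overlap (-0.49 ± 0.18, adjusted p = 0.066), and passed as lower with the block (adjusted p = 0.03) and with TMM scaling (-1.09, adjusted p = 0.0028). Pax5, the B cell identity factor, had 1511, 946 and 1269 in CD8 control and 4.69, 35.3 and 71.8 in Flica-positive libraries (-5.06 ± 0.75, adjusted p = 0.00046). In these libraries H2-Aa, H2-Ab1 and H2-Eb1 overlapped control with the authors' size factors and were called lower with TMM scaling. No link between Pax5 and class II was tested.

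Of 12 costimulation partners 7 were listed, and 1 of these, Cd40, was called higher in the Flica-positive than in the Flica-negative CD8 population (30.5, 7.06 and 67.0 against 0, 2.80 and 0 normalized counts, adjusted p = 0.042), a share not above the 21.4% of listed genes and a call lost with TMM scaling (adjusted p = 0.06) and with the block (adjusted p = 0.1). Lag3, an inhibitory receptor that binds class II, had 6377 ± 736 in Flica-positive, 5867 ± 314 in CD8 Flica-negative and 34.3 ± 10.5 in CD8 control cells. Of 23 genes of class I presentation only H2-Q6 was listed, and it did not differ by the test between the CD8 populations of day 7 (-0.28 ± 0.18, adjusted p = 0.27), except as lower in Flica-positive cells with TMM scaling (-0.86, adjusted p = 0.0099).

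Markers of the usual class II-positive cells differed between the populations, B cell markers in one order and myeloid markers in another. All 16 B cell markers were listed. Their summed level was 11175 to 15295 normalized counts in CD8 control and 10757 to 13758 in CD4 control libraries, and 917 to 1512 in the 9 day 7 libraries. In Flica-negative against control cells 15 of 16 were called lower in CD8 and 16 of 16 in CD4 cells (29.4% and 27.3% of listed genes), with median log2 differences of -6.97 and -7.67. In Flica-positive against CD8 control cells 15 of 16 were called lower (24.0% of listed genes). Of the 15 that could be tested against Flica-negative CD8 cells, 3 were called higher in Flica-positive cells, a share near that of all listed genes (21.4%), with 5 by DESeq2 and 7 in the fit of all 15 libraries. The median log2 difference of these markers was 2.17, beside 0.42 over all listed genes, so few calls do not show equal levels. Cd79a, the most abundant in CD4 control cells, had 1566, 1007 and 1013 in CD8 control and 45.7, 125 and 117 in Flica-positive libraries, and Ms4a1 was at 0 in the 6 Flica-negative day 7 libraries and in Flica-positive replicate 3. Cd72, with 373, 440.3 and 505, was the most abundant of the list in Flica-positive libraries. The 6 class II genes summed to 1.03 to 1.15 per B cell marker count in CD8 control and to 10.0 to 12.3 in Flica-positive libraries. In Flica-negative day 7 libraries this ratio was 1.01 to 1.92 in CD8 and 0.557 to 0.684 in CD4 cells. Single genes led the marker sums there, Cd72 with 57.2% in CD8 and Cd22 with 46.5% in CD4 cells. The part of B cells in the class II signal was not tested.

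The summed macrophage and neutrophil markers were lowest in control libraries and highest in Flica-positive libraries. Of 20 macrophage and monocyte markers 15 were listed, and 12 were called higher in the Flica-positive than in the Flica-negative CD8 population (21.4% of listed genes) and 15 higher than in CD8 control cells (47.0%), 14 of them with TMM scaling or the block. Their sum was 277 to 399 in CD8 control, 6699 to 8272 in CD8 Flica-negative and 23304, 42545 and 40464 in Flica-positive libraries, with Lyz2 as the most abundant gene there (14703, 33193 and 30754). Ccr2 alone made up 67.7% of the mean sum in CD8 Flica-negative cells. In CD4 Flica-negative libraries the sum was 5477 to 7184, with 80.2% from Ccr2. Of 14 neutrophil markers, all listed, 14 were called higher in the Flica-positive than in the Flica-negative CD8 population (21.4% of listed genes), and they summed to 59.1 to 115 in CD8 control, 10853 to 16746 in CD8 Flica-negative and 184372, 327204 and 348733 in Flica-positive libraries, led by Ngp. No gene of either list was at or under 3 counts in all Flica-positive libraries. The class II sum of the Flica-positive libraries was 13893, 15164 and 13676. The part of myeloid cells in the class II signal was not tested.

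Of 12 markers of conventional dendritic cells 7 were listed, and all 7 were called higher in Flica-positive than in CD8 control cells (47.0% of listed genes; 5 with TMM scaling and 6 with the block), and against Flica-negative CD8 cells 4 were called higher (21.4%) and 1 lower (2.70%). Wdfy4, which is also expressed in B cells, had 1558, 1814 and 2046 in Flica-positive, 228, 156 and 93.2 in CD8 Flica-negative and 885, 533 and 498 in CD8 control libraries. Flt3 had 222, 175 and 232 in Flica-positive against 24.5, 8.40 and 11.2 in CD8 Flica-negative libraries, and Batf3 48.1, 50.6 and 52.6 against 4.26, 0 and 0. The most abundant gene of the list, Itgax, went the other way (4875, 6025 and 4804 against 9556, 9238 and 6748), and the summed level of the list was 7701 to 9062 in Flica-positive and 7022 to 10209 in CD8 Flica-negative libraries. Of 8 plasmacytoid dendritic cell markers 4 were listed, none was called higher in Flica-positive cells than in either other CD8 population, and their sum was 208 to 388 there and 4302 to 4679 in CD8 control libraries, led by Ccr9 in the control libraries. The part of dendritic cells in the class II signal was not tested.

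Of 19 T cell markers 3 were listed. Cd8a had 11437, 11492 and 9348 normalized counts in Flica-positive, 13841, 14967 and 12817 in CD8 Flica-negative and 21642, 18353 and 19250.0 in CD8 control libraries, and 4.41 to 117 in CD4 libraries, so that Cd8a followed the labels of the sort. Tcf7 was the most abundant of the 3 in both control populations and Cd8a in both CD8 day 7 populations. The defining markers Cd3e and Cd4 were not among the listed genes and have no values here.

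**Figure D5:**
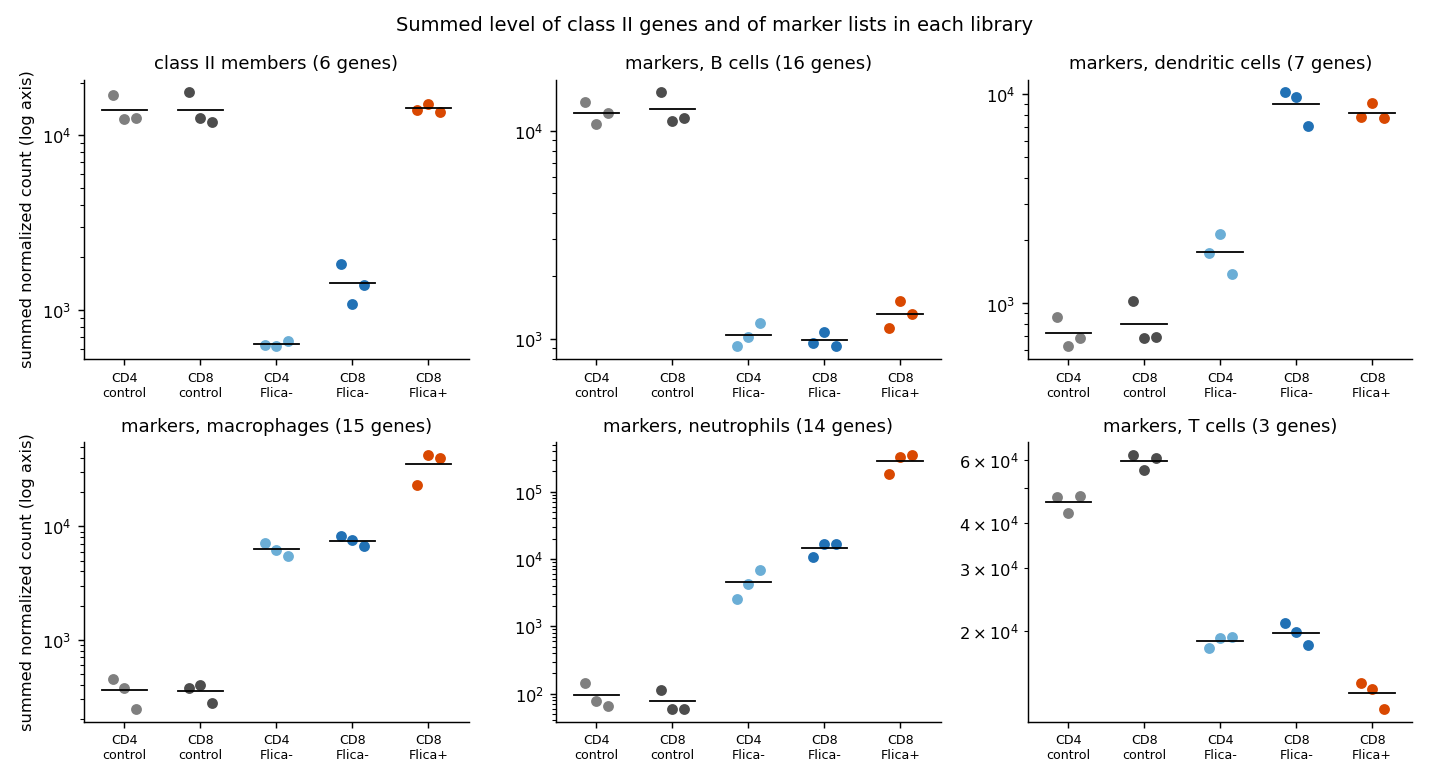
Summed normalized counts of the 6 class II genes and of the listed genes of 5 marker lists in each library, on log axes that differ between panels; points are libraries and lines are means. Flica-positive libraries overlap control libraries in class II (13676 to 15164), lie near Flica-negative libraries in summed B cell markers (1130.2 to 1512), and are highest in macrophage and neutrophil markers. Cd72 made up 57.2% of the mean B cell sum in CD8 Flica-negative and 33.4% in Flica-positive cells.

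The genes whose pattern over the 15 libraries was closest to each class II gene were found among 3072 listed genes with a symbol whose mean reached 20 normalized counts, using the root mean square (RMS) difference of log2(normalized count + 1) after each gene was centred. Marchf1 (0.58), Cd180 (0.60) and Gm15774 (0.67) were nearest to H2-Aa, and Cd180 (0.46), Marchf1 (0.51) and Gm15774 (0.67) to H2-Ab1. Wdfy4 (0.62), Marchf1 (0.63) and Rnase6 (0.67) were nearest to H2-Eb1, Cd180 (0.29), Eef2k (0.59) and Marchf1 (0.65) to Cd74, and Nlrc4 (0.62), Cd180 (0.63) and Eef2k (0.69) to Ciita. The median candidate was 2.94 away from H2-Aa. Within the set, H2-Aa and H2-Eb1 were 0.30 apart and H2-Ab1 and Cd74 0.33, while H2-DMb2 was 0.83 from Ciita and 1.33 from H2-Aa, with Cnr2 (0.76), Pou2af1 (0.84) and Nedd4l (0.85) nearest to it. Marchf1, described above, had 192 ± 67.5 normalized counts in CD8 control, 38.0 ± 8.18 in CD8 Flica-negative and 370 ± 164 in Flica-positive cells. Pou2af1, near H2-DMb2, had 627 ± 118, 21.5 ± 14.5 and 93.6 ± 58.6.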

How the data were processed

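The authors sequenced oligo-dT libraries (paired-end) of sorted spleen cells. The submitters' processing notes name STAR 2.7.1a, DESeq2 and GRCm38, and the annotation and counting tool are not given in the sources used here. The deposited tables hold raw counts per gene for all 15 libraries, with the authors' mean normalized signal of each gene. They also hold the authors' log2 fold changes, standard errors, test scores and p-values, which were not used, nor were the 4 deposited enrichment tables. From the counts, the ratio of the 2 group means in each table was at least 1.99 on the log2 scale, so each table holds selected genes. Solving the deposited means for 1 size factor per library (largest relative error 5e-15) gave factors of 0.836 to 1.25.

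Groups were compared over all listed genes by the quasi-likelihood test of edgeR 4.0.16 (R 4.3.3) in fits of only those groups, scaled by the authors' factors, with p-values adjusted by Benjamini-Hochberg across listed genes and a threshold of 0.05, and the CD4 and CD8 responses by an interaction term. On simulated counts of Flica-positive against Flica-negative CD8 cells with 4101 genes, 152 of 200 genes changed by a log2 of 3 were called and 2 unchanged genes. The changed genes were drawn above a minimum Flica-negative mean that H2-DMb2 did not reach. As many were raised as lowered, and the size factors were taken as known. The data gave 941 higher and 119 lower calls among selected genes, so these rates need not carry over. Alternatives were a replicate block, DESeq2 1.42.0, TMM over the listed genes, a mean of at least 10, 1 fit of all 15 libraries, and leaving out each library. No pair of replicates agreed within sampling noise. A fold against a group with at most 3 counts in each library is a lower bound. Intervals are 95%. Library depth is unknown. Promoters came from RefSeq (GRCm38.p6), positions, transcript lengths and older symbols (matched by gene ID) from GENCODE M21, and scipy 1.17.1 gave exact tests. Named genes were the set, the listed pathway genes, markers by count, sum and leading gene, and the 3 nearest genes of each member; single genes of the other lists were named after their values were seen. The members and lists were chosen with earlier results of these data known.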

Additional observations from a re-analysis of the deposited data

Results flagged for a closer look

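The difference between the CD4 and the CD8 response (Flica-negative day 7 cells against control cells) passed the test of the interaction for 3 of the 6 listed genes of the set and 2 other genes of the pathway, beside 4.59% of listed genes called lower and 5.67% called higher. The CD4 minus CD8 difference of log2 differences was -1.69 for H2-Aa, -1.51 for H2-Ab1 and -2.29 for H2-Eb1, it was -2.32 for Marchf1, and it was 2.65 in the opposite direction for H2-Ob. With TMM scaling the calls of H2-Aa and H2-Ab1 (both adjusted p = 0.11) and Marchf1 (adjusted p = 0.079) were lost, and that of H2-Aa was also lost when any of 6 libraries was left out (adjusted p = 0.051 to 0.07). Groups of 3 libraries are too small for a test of outlying samples.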

How the results depend on the processing

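Across the 7 comparisons, the 6 class II genes gave 42 log2 differences. DESeq2 and the fit of all 15 libraries kept the direction and the call of all 42, and a mean of at least 10 kept all but that of Cd74 in the CD4 minus CD8 response, which passed (adjusted p = 0.046). TMM scaling reversed H2-Aa (-1.58), H2-Ab1 (-1.22) and H2-Eb1 (-1.39) in Flica-positive against CD8 control cells, with Ctsh (-0.40), Lgmn (-0.31), H2-DMb1 (-0.58) and Marchf1 (-0.80), and Cd74 (-0.0085), Ciita (-0.027) and Marchf1 (-0.014) between control lineages, none of these called but the first 3. It moved the median of all listed genes by -0.56 in Flica-positive against Flica-negative CD8 cells, by -0.38 in CD8 and by -0.23 in CD4 Flica-negative against control cells, where all 6 genes stayed called. It called 6 members instead of 2 in Flica-positive against CD8 control cells, left 1 member instead of 3 and 285 listed genes instead of 467 for the CD4 minus CD8 response, and changed the higher and lower calls of Flica-positive cells from 941 and 119 to 727 and 448 against Flica-negative and from 2138 and 1091 to 1231 and 1610.0 against CD8 control cells. With it the summed level of the 6 genes was 20298 in CD4 control, 20925 in CD8 control, 702 in CD4 Flica-negative and 6082 in Flica-positive cells. The fit of all 15 libraries called 653 listed genes between CD4 and CD8 Flica-negative cells instead of 984.

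Replicate numbers are shared by the groups, and whether same-numbered libraries deviate together depended on the genes used. Over listed genes with a mean of at least 10 in all 15 libraries together, the correlations of their deviations ran from -0.07 to 0.13 in 6 comparisons, and in none did every pair pass 0.1, so the numbers were not taken to pair the libraries. With the mean taken over the libraries compared instead, they ran from -0.0885 to 0.166 at that minimum, again with none. With a mean of at least 100 over the libraries compared (chosen after the data were seen), every pair passed for the CD8 populations of day 7 (0.301, 0.135 and 0.220) and for the control lineages (0.334, 0.138 and 0.182), where the block left the number of class II genes called at 6 and 0. With a mean of at least 200 it also did so for CD4 and CD8 Flica-negative cells (0.539, 0.227 and 0.631), where the block left 4 class II genes called and added calls for Lgmn (adjusted p = 0.03) and Cd9 (adjusted p = 0.0026). Every library correlated best with its own number between CD4 and CD8 Flica-negative cells and between the control lineages (6 of 6 each), and 5 of 6 did so between the CD8 populations of day 7. With the replicate block, Flica-positive against CD8 control cells gave 1 class II gene instead of 2 and 2106 listed genes instead of 3229, and Cd74 passed in the CD4 minus CD8 response (adjusted p = 0.022). The block changed no other call of the 6 genes, and Marchf8 turned sign in the response difference (-0.16, not called).

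Leaving out each library in turn gave 6 class II genes called throughout in both comparisons of Flica-negative with control cells and in Flica-positive against Flica-negative CD8 cells, 1 to 2 in Flica-positive against CD8 control cells, 3 to 4 between CD4 and CD8 Flica-negative cells, 0 between control lineages and 2 to 4 for the response difference. The listed genes called in Flica-positive against Flica-negative cells ranged from 697 (without Flica-negative replicate 2) to 1042. The log2 difference of H2-DMb2 ran from 3.09 to 4.15 in Flica-positive against Flica-negative CD8 cells. Against control cells it ran from -6.04 to -4.99 in CD8 and from -5.35 to -4.06 in CD4 Flica-negative cells. That of Marchf8 ran from 4.06 to 6.15 in Flica-positive against CD8 control cells. Signs turned, always without a call, for differences whose log2 ranges were -0.08 to 0.37 for H2-Aa and -0.13 to 0.10 for Cd74 in Flica-positive against CD8 control cells, and -0.083 to 1.55 for H2-DMb2 and -1.09 to 0.82 for H2-Ea between CD4 and CD8 Flica-negative cells. Between control lineages they were -0.33 to 0.20 for H2-Aa, -0.19 to 0.32 for H2-Ab1, -0.35 to 0.083 for H2-Eb1, -0.27 to 0.24 for H2-DMb2, -0.080 to 0.17 for Cd74, -0.096 to 0.25 for Ciita, -0.23 to 0.10 for H2-DMb1, -0.46 to 0.070 for Ctsh, -0.20 to 0.31 for Marchf1 and -1.46 to 0.65 for Marchf8, and for the response difference -0.033 to 1.60 for H2-DMb2, -1.06 to 0.47 for Lgmn and -1.17 to 0.93 for Marchf8.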
